A study of Rattus norvegicus with 12 samples.

Results

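The untreated control group of a study of primary rat astrocytes comprised 3 RNA-seq libraries of 12 in the series, and these 3 libraries are described here gene by gene. They were chosen by their labels alone, as the libraries labelled control, at 0 h of the compound PT109B. The cells were wild-type primary astrocytes taken from the midbrain of newborn Sprague-Dawley rats and kept in DMEM with 10% fetal bovine serum and antibiotics. The other 9 libraries, 3 each after 1.5, 3 and 6 h with 10 µM PT109B, share this source and medium and were not used. PT109B is a small molecule known here by its code name, and by its title the series asks how fast PT109B converts astrocytes to a dopaminergic neuron fate. The labels do not say whether the 3 control libraries came from separate cultures or animals, so the spread between them may be technical. Nor do they give the number of pooled animals or the days in culture.

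Astrocytes are the glial cells that take up glutamate and potassium around synapses, supply neurons with lipid and antioxidant support, and contact blood vessels with water channel-rich endfeet. When dissociated newborn brain is plated in serum, dividing glia outgrow neurons, and the resulting cultures usually hold some microglia and other non-neuronal cells beside the astrocytes. Cells grown this way keep dividing and carry features of immature and reactive astrocytes. Such cultures are a common starting material for attempts to reprogramme glia into neurons.

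Levels are given as deposited FPKM, which divides fragment numbers by library size and gene length and so allows genes to be compared with each other. Total estimated counts were 10432924, 12498047 and 10364591 in replicates 1, 2 and 3, summed across 9721 genes. These are part of a rat transcriptome, 9090 of 23154 protein-coding gene symbols of a RefSeq table and 12 of 76 ribosomal protein genes, so ranks and shares refer to these genes. Replicate 3 stood apart from the other pair: the correlation of log2 FPKM across 7589 genes with a mean count of at least 100 was 0.994 between replicates 1 and 2, 0.986 between 1 and 3, and 0.984 between 2 and 3. These correlations are across genes, which are not independent replicates. For this reason each gene below is given in replicates 1, 2 and 3, in that order, so that its level can be read with and without replicate 3.

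The astrocyte label was checked against 3 markers, and all were well above the median gene. Gfap (ENSRNOG00000002919), the intermediate filament protein of astrocytes, was at 541, 533 and 754 FPKM, a mean of 609 ± 125 (SD, n = 3). Aqp4 (ENSRNOG00000016043), the water channel of astrocyte endfeet, was at 189, 168 and 302 FPKM, or 219.6 ± 72.1. Sox9 (ENSRNOG00000002607), a transcription factor of the astrocyte lineage, was at 21.6, 20.7 and 24.6 FPKM, or 22.3 ± 2.02. The median gene of the table was at 8.56 FPKM, below each marker in each library. In percentiles, the share of genes of the table at or below a gene's mean level, Gfap stood at 99.5, Aqp4 at 98.2 and Sox9 at 75.8. In bulk RNA a smaller number of cells of a type and less RNA per cell cannot be told apart, so neither these nor the levels that follow give a share of cells.

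The tissue label was checked in the same way, against factors that pattern the embryonic brain and often stay on in regional astrocytes. Of the factors looked for, 16 of 25 for midbrain and hindbrain and 8 of 21 for forebrain and Hox were in the table. En1, En2, Pax7 and Foxa2 were low or at 0 and gave the midbrain label little support. En1, a homeobox factor that marks the midbrain and anterior hindbrain, was at 1.80, 1.43 and 1.57 FPKM, from 41, 39 and 35 counts. Its relative En2 was at 0.998, 1.23 and 0.898 FPKM, and Pax7, a factor of the dorsal midbrain, had 1, 0 and 0 counts. Foxa2, which specifies the ventral midbrain floor plate, had 0 counts in each library, where 0 allows up to 3 counts. The forebrain factors Lhx2, Emx2 and Six3 were higher per length than En1 and En2 in each of the 3 libraries. Lhx2, needed for forebrain and eye development, was at 26.7, 24.04 and 25.8 FPKM. Emx2, of the dorsal telencephalon, was at 10.5, 8.82 and 11.5 FPKM. Six3, of the anterior forebrain, was at 4.69, 4.08 and 5.43 FPKM.

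Of 16 midbrain and hindbrain factors in the table, 3 had a mean of at least 5 FPKM, and of 8 forebrain factors 3 did. The 3 of the first list were Meis2 (19.8 ± 1.08 FPKM), Zic1 (8.71 ± 0.682) and Otx1 (7.86 ± 0.631), which also pattern the forebrain. Otx2, expressed across the embryonic forebrain and midbrain, was at 2.81, 2.55 and 2.73 FPKM. The midbrain and hindbrain list had a median of 1.32 FPKM and the forebrain list one of 3.29 FPKM, both under the median gene. Further forebrain factors were low, with Nkx2-1 at 1.80, 1.69 and 2.04 FPKM and Dlx2 at 1.33, 1.64 and 1.48 FPKM. Lmx1a, Lmx1b, Pax2, Pax5, Wnt1, Fgf8 and the Hox genes looked for were not analysed here. The cause of these levels, including how the tissue was dissected, was not tested.

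**Figure D1:**
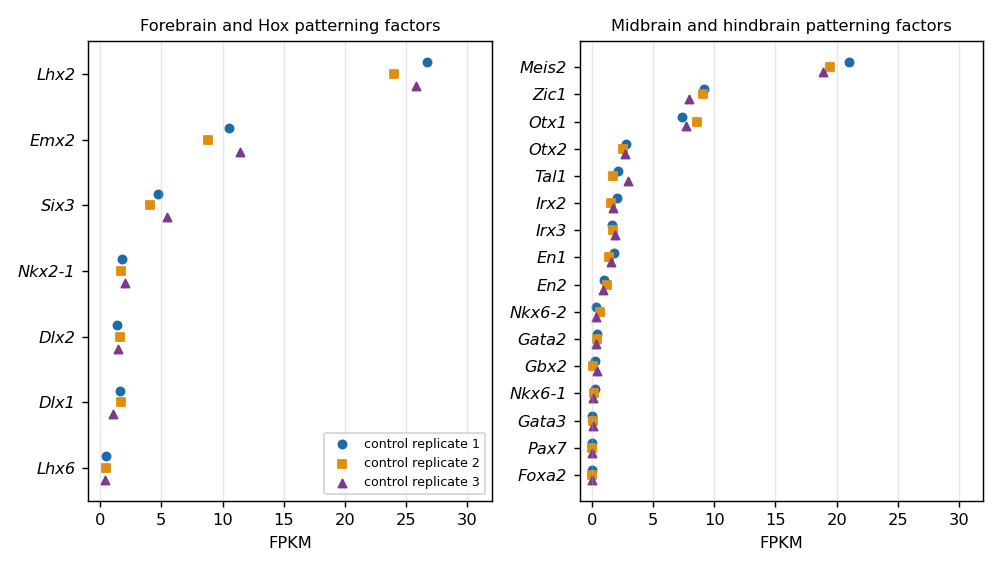
FPKM (linear axis) of 7 forebrain factors and 16 midbrain and hindbrain factors in the 3 control libraries, with 1 symbol for each replicate. Lhx2 and Emx2 stand at 8.82 to 26.7 FPKM in all 3 libraries, while En1 and En2 stand at 0.898 to 1.80 FPKM and Pax7 and Foxa2 at or near 0.

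Transcription was spread over many genes, and a short list of very abundant transcripts stood above them. Of 9721 genes, 8450 had a mean of at least 1 FPKM, 4479 of at least 10, 429 of at least 100 and 28 of at least 1000. The 25 most abundant genes held 20.3% of the summed mean FPKM, the 10 most abundant 13.7% and the 100 most abundant 34.6%. In the single libraries the 25 most abundant held 21.0%, 19.8% and 20.3%. At the other end, 1271 genes had a mean under 1 FPKM, and 36 genes had 0 counts in all 3 libraries, among them Ntf3, a neurotrophin.

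Iron storage and mitochondrial respiration held the highest levels. Fth1 (ENSRNOG00000022619), the ferritin heavy chain, was at 8875, 7518 and 9626 FPKM, and Ftl1, the ferritin light chain, at 3614, 3017 and 3561 FPKM. Mt-co1 and Mt-co2, subunits of cytochrome c oxidase encoded by the mitochondrial genome, were at 9171, 7876 and 7229.5 and at 3979, 3821 and 3263 FPKM. The 7 mitochondrially encoded genes in the table had a median of 879 FPKM. Both Mt-co transcripts were lowest in replicate 3, whereas Fth1 was highest there, so that Fth1 ranked first in the mean of 3 libraries and in replicate 3, and Mt-co1 above it in replicates 1 and 2.

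Enzymes that handle oxidants and reactive compounds formed a second abundant group. Gstp1, a glutathione transferase, was at 3704, 3408 and 3837 FPKM. Nqo1 (ENSRNOG00000012772), a quinone reductase and a target of the oxidative stress factor Nfe2l2, was at 2337, 2183 and 2301 FPKM with a coefficient of variation (CV, SD over mean) of 3.54%. Mt2A, a metallothionein that binds zinc and copper, was at 1550.2, 1239 and 1540.2 FPKM. Prdx1, a peroxiredoxin, was at 1215, 1145 and 1033 FPKM, Akr1b1, aldose reductase, at 1168, 1132 and 1125 FPKM, and Taldo1, an enzyme of the pentose phosphate pathway, at 1171, 1087 and 1224 FPKM. The 3 libraries lay close together for most of this group.

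Several cytoskeletal genes were likewise abundant. Actb was at 3400.3, 3482 and 2583 FPKM, Actg1 at 1989.7, 2033 and 1452 FPKM, Tuba1b, an alpha tubulin, at 2983, 3291 and 2186 FPKM, and Vim, the intermediate filament of immature glia, at 1908, 1949 and 1426 FPKM. In each of these 4, replicates 1 and 2 were close to each other and replicate 3 was lower. Other abundant genes of the actin cytoskeleton were mixed. Arpc2, a subunit of the Arp2/3 complex, was even at 381, 383 and 378 FPKM. So was Cnn3, a calponin, at 717, 684 and 717 FPKM. Myl12a, at 606, 641 and 464 FPKM, and Tpm4, at 437, 440 and 277 FPKM, were lower in replicate 3. The actin pair kept a steady ratio all the same, with a log2 of Actb over Actg1 of 0.77, 0.78 and 0.83.

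Secreted proteins made up much of the rest. Cst3, the protease inhibitor cystatin C, was at 1464, 1197 and 1633 FPKM. Sparc, a matrix glycoprotein released by astrocytes, was at 1282, 1245 and 1263 FPKM, and Apoe, the lipid carrier of the brain, at 1117, 1138 and 1234 FPKM. Ccl2, a chemokine that draws monocytes, was at 1274, 1178 and 1259 FPKM. Lcn2 (ENSRNOG00000013973), a siderophore-binding protein made by inflamed glia, was at 1043, 992 and 2101 FPKM, with replicate 3 above both others and a highest over lowest ratio of 2.12. The remaining members of the 25 were Lyz2, the lysozyme of macrophages, at 2049, 1862 and 2517 FPKM, Hspa8, a constitutive chaperone, at 1412, 1402 and 1449.9 FPKM, Pea15, a phosphoprotein abundant in astrocytes, at 1400.1, 1352 and 1113 FPKM, Glul at 994, 962 and 1521 FPKM, Pkm at 1124, 1144 and 1146 FPKM and Mt-nd3 at 1312, 1081 and 1228 FPKM. For 7 of the 25, Fth1, Ftl1, Tuba1b, Lyz2, Hspa8, Pkm and Prdx1, some counts were not whole numbers, as happens when reads are shared between near-identical copies, and their levels are less certain.

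**Figure D2:**
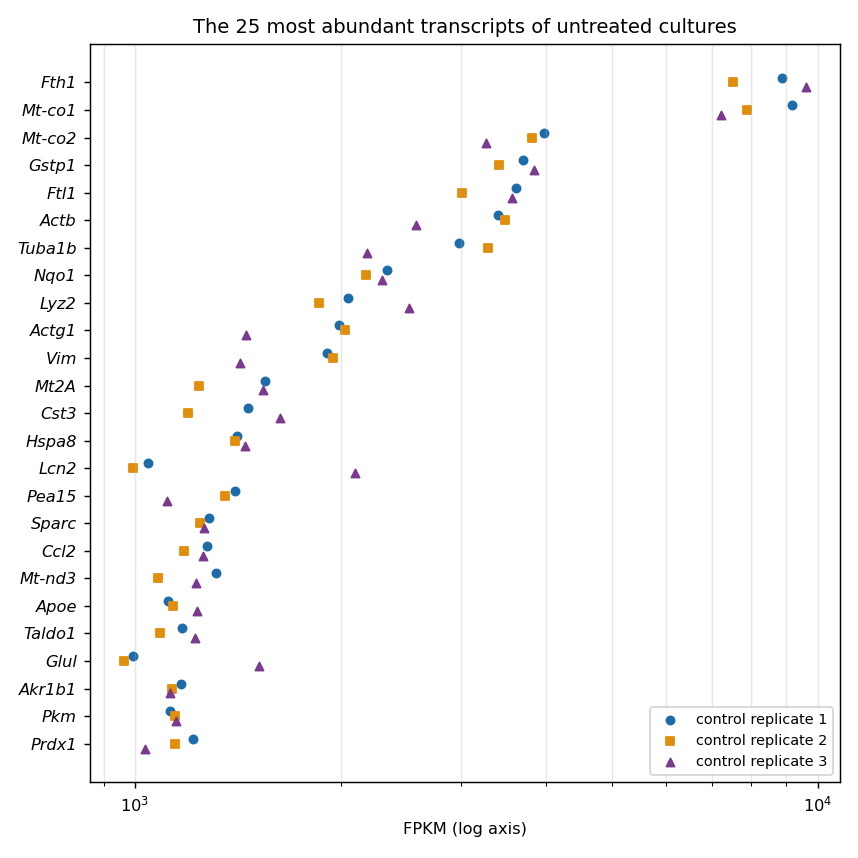
FPKM (log axis) of the 25 genes with the highest mean over the 3 control libraries, with 1 symbol for each replicate. Fth1 and Mt-co1 lie between 7230 and 9626 FPKM, and Lcn2 and Glul are higher in replicate 3 (2101 and 1521 FPKM) than in replicates 1 and 2.

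The abundant genes differed from the rest of the table in where their products act. Of the 100 most abundant genes, 94 had a cellular component in the deposited Gene Ontology text, and 34.0% of these were extracellular, against 9.29% of all 8655 annotated genes. Lysosomal products were 16.0% of the abundant genes against 3.03% of all, and mitochondrial ones 23.4% against 8.60%. For the process of responding to oxidative stress the shares were 12.6% and 1.82%. Nuclear products were the less common among the abundant genes, 23.4% against 34.9%.

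The letters of a TATA box were more common before abundant genes than in the table as a whole. A TATA box is a short promoter element bound by the TATA-binding protein, and the letters were counted here at any distance within the window. The motif TATAAA, on either strand, was in the 250 bases before the start of 21 of 73 promoters found for the 100 most abundant genes (28.8%), against 505 of 7422 promoters of all genes of the table (6.80%). The share was 32.4% for the 50 most abundant genes and 19.0% for the 200 most abundant. Genes of the oxidative stress, heat shock and unfolded protein list held the motif in 9 of 20 promoters. Besides Nqo1 and Mt2A, the nearest match began 32 bases before the start in Prdx1 and 30 in Sqstm1. It began at 112 bases in Txn1 and 244 in Gclc, so the matches were not at a set distance. Nqo1 and Mt2A are shown as the abundant pair of this group, from RefSeq (GRCr8): Nqo1 from chr19:52220268-52220517 on the minus strand, with the motif starting 59 bases before the annotated start, and Mt2A from chr19:10838709-10838958 on the minus strand, with the motif at 31 bases. Capitals mark TATAAA. A match of letters is a description and not a measured binding site.
Nqo1: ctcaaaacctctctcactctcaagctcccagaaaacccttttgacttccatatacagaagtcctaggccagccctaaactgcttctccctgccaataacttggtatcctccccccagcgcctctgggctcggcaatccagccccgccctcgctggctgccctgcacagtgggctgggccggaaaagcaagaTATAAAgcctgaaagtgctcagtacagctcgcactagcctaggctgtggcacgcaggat
Mt2A: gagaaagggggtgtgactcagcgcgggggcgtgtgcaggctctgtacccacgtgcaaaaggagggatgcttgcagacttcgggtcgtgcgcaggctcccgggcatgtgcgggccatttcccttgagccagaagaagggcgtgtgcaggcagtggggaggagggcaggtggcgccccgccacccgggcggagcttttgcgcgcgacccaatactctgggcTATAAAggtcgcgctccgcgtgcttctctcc

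Astrocyte genes as a list were among the high transcripts of the table. Of 40 genes on the list, 29 were in the table, 28 had a mean of at least 1 FPKM, 27 of at least 10 and 14 of at least 100. Their median level was 78.5 FPKM and their median percentile 94.0. Genes such as Slc1a3, Aldoc, Gjb6, Atp1b2 and Ndrg2 were not analysed here.

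Astrocyte metabolism was represented by Glul (ENSRNOG00000049560), glutamine synthetase, which turns glutamate into glutamine, at 994, 962 and 1521 FPKM. Mt3, a metallothionein of the brain, was at 529.7, 345 and 529 FPKM, S100b, a calcium-binding protein, at 132, 127 and 184 FPKM, and Acsbg1, an acyl-CoA synthetase, at 122, 119 and 183 FPKM. Aldh1l1, a folate enzyme widely used to label astrocytes, was at 28.7, 29.1 and 38.9 FPKM. Secreted products included Sparcl1, a synapse-promoting protein, at 355, 352 and 629 FPKM, Clu, a chaperone of extracellular proteins, at 200.1, 208 and 313 FPKM, and Pla2g7, a phospholipase, at 481, 443 and 684 FPKM. Most of these were higher in replicate 3, and Aldh1l1 was the lowest of them.

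Membrane proteins of mature astrocytes were present at a wide range of levels. Slc1a2, the main glutamate transporter of adult astrocytes, was at 90.3, 87.1 and 142 FPKM. Gja1, the gap junction protein connexin 43, was at 70.1, 72.9 and 84.4 FPKM, Mlc1 at 117, 121 and 141 FPKM, and Kcnj10, the potassium channel Kir4.1, at 24.4, 23.8 and 33.4 FPKM. Slc4a4, a bicarbonate cotransporter, was at 12.7, 13.3 and 13.8 FPKM and did not differ between the libraries beyond counting error. Among 15 measured genes of glutamate, potassium, water and gap junction handling the median was 27.8 FPKM. The metabotropic glutamate receptors Grm3 and Grm5 were at 2.99 and 2.48 FPKM on average. At the low end of the astrocyte list, Chrdl1, a synapse-maturing protein, was at 6.03, 5.56 and 4.72 FPKM, and Ntsr2, a neurotensin receptor of mature astrocytes, had 1, 4 and 5 counts.

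**Figure D3:**
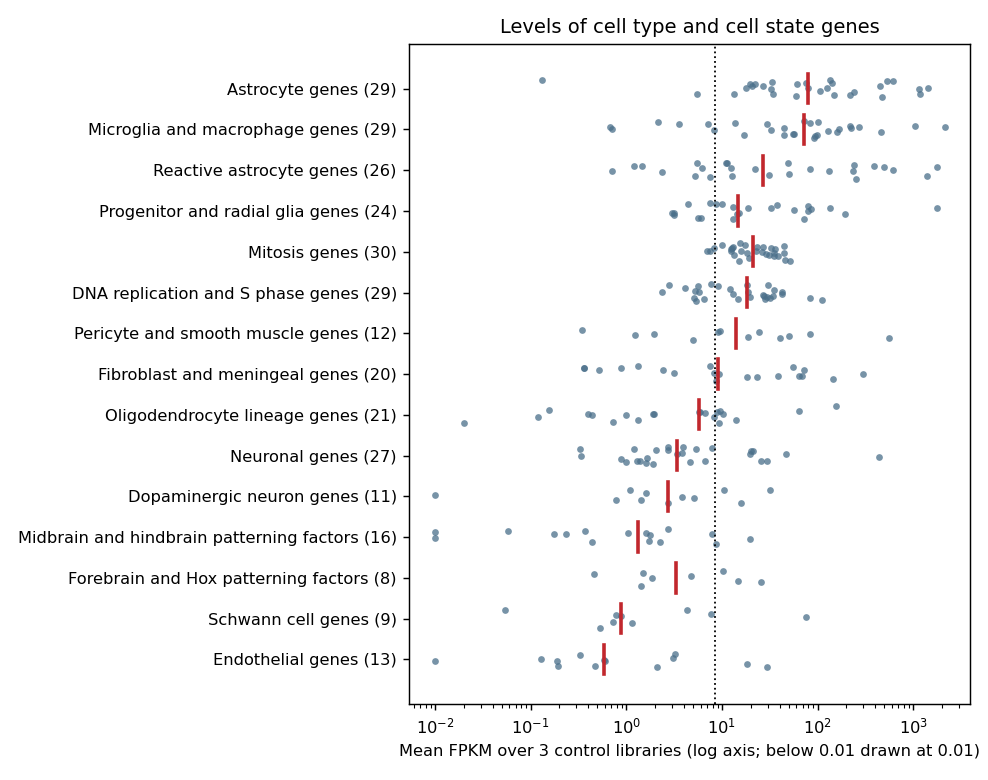
Mean FPKM over the 3 control libraries (log axis) of each measured member of 15 gene lists, with a red bar at each list's median and a dotted line at the median gene of the table, 8.56 FPKM. Astrocyte and microglial lists have medians of 78.5 and 72.8 FPKM, and neuronal, dopaminergic, Schwann cell and endothelial lists lie under the median gene.

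Markers of reactive astrocytes spanned the whole range of levels. Of 26 measured members 9 had a mean of at least 100 FPKM, and the median was 26.6 FPKM. Beside Vim, Lcn2 and Gfap, the high members were Cp, the ferroxidase ceruloplasmin, at 397, 388 and 696 FPKM, S100a10 at 427, 470.2 and 264 FPKM, Hspb1, a small heat shock protein, at 262, 265 and 237 FPKM, Cd44, a hyaluronan receptor, at 235, 238 and 249 FPKM, the complement component C3 at 157, 173 and 379 FPKM and Timp1, a metalloproteinase inhibitor, at 145, 138 and 113 FPKM. B3gnt5, a glycosyltransferase, and Amigo2, an adhesion protein, were low at 1.32, 1.59 and 0.694 and at 0.717, 0.833 and 0.585 FPKM. The list did not act as a block. C3, Lcn2, Cp and Serping1, a complement inhibitor at 58.2, 55.3 and 133 FPKM, were higher in replicate 3, whereas S100a10, Hspb1, Timp1 and Vim were lower there and Cd44 was nearly even.

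Progenitor genes were well represented. Of 24 measured members of the radial glia and progenitor list, 24 had a mean of at least 1 FPKM and 16 of at least 10, with a median of 14.7 FPKM. Nes, the intermediate filament nestin, was at 200.4, 227 and 146 FPKM. Sox2, the transcription factor that maintains neural progenitors, was at 56.5, 55.5 and 56.5 FPKM with a CV of 1.05%. Tnc, a matrix protein of progenitor niches, was at 109, 136 and 156 FPKM, Ptprz1, a receptor phosphatase of radial glia, at 71.3, 78.6 and 87.98 FPKM, and Hopx at 34.6, 32.01 and 31.5 FPKM. Sox2 and Hopx did not differ between the libraries beyond counting error, and neither did the RNA-binding protein Msi1 (7.62, 7.59 and 7.51 FPKM, CV 0.711%).

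Further progenitor transcription factors were lower than Nes, Tnc and Sox2. Nr2e1, a nuclear receptor of neural stem cells, was at 13.6, 12.04 and 17.3 FPKM, Pax6 at 9.60, 8.81 and 7.80 FPKM and Hes1, a Notch target repressor, at 5.59, 5.35 and 5.72 FPKM. The receptors Notch1 and Notch2 were at 12.7, 15.9 and 16.9 and at 11.8, 12.8 and 14.2 FPKM. Lowest were Prom1, the surface protein CD133, at 2.90, 3.63 and 2.98 FPKM and Sox1 at 3.12, 2.79 and 3.18 FPKM. All of these were detected in all 3 libraries.

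Of the genes that hold neuronal fate in check, Ptbp1 was abundant. This splicing repressor, which blocks neuronal exons in non-neuronal cells, was at 199, 208 and 192 FPKM (199 ± 8.32), and its neuronal counterpart Ptbp2 was at 7.63, 7.98 and 4.95 FPKM. The log2 ratio of Ptbp1 over Ptbp2 was 4.70, 4.71 and 5.27, a mean ratio of 29.7-fold. Rest, the repressor of neuronal genes, was at 10.4, 10.1 and 9.55 FPKM, with its partners Rcor1 at 9.86, Sin3a at 16.7 and Hdac2 at 56.6 FPKM on average. The proneural factor Neurog2 had 3, 2 and 4 counts and Myt1l, a factor used in neuronal reprogramming, 10, 27 and 6 counts. Pou3f2 was at 2.90, 3.03 and 3.63 FPKM.

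Neuronal genes were on the whole low, with some exceptions. The 27 measured members had a median of 3.40 FPKM, at a median percentile of 28.9. Uchl1, a ubiquitin hydrolase abundant in neurons, was at 448, 436 and 432 FPKM, far above the rest, and its counts did not differ between libraries beyond counting error. Neurofilament genes Nefm and Nefl were at 49.5, 45.2 and 44.6 and at 31.4, 28.5 and 28.8 FPKM, Eno2 at 27.4, 25.7 and 23.9 FPKM and Tubb3 at 23.03, 22.7 and 17.2 FPKM. Stmn2, a tubulin-binding protein of neurons, was at 23.4, 21.8 and 14.97 FPKM and Map2, a dendritic microtubule protein, at 21.1, 19.02 and 18.9 FPKM. Dcx, a marker of young neurons, was at 1.26, 1.76 and 0.634 FPKM, Gad2, a GABA synthesis enzyme, at 1.87, 2.36 and 0.636 FPKM, Slc32a1, the vesicular GABA transporter, at 1.08, 1.29 and 0.249 FPKM, and Slc17a6, a vesicular glutamate transporter, at 0.438, 0.380 and 0.166 FPKM. Dcx, Gad2, Slc32a1 and Slc17a6 were lower in replicate 3 than in both other replicates.

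Dopaminergic genes were low as a list. The 11 measured members, which include the patterning factors Otx2, En1 and Foxa2, had a median of 2.70 FPKM. The 3 above 10 FPKM were Slc10a4 at 33.8, 34.8 and 26.8 FPKM, the calcium-binding protein Calb1 at 15.5, 13.9 and 17.9 FPKM and the transcription factor Sox6 at 11.4, 11.3 and 8.63 FPKM. Aldh1a1, an aldehyde dehydrogenase of a dopaminergic subtype, was at 5.91, 5.24 and 4.01 FPKM, Nr4a2, a factor that dopaminergic neurons need, at 1.64, 1.22 and 1.40 FPKM and Slc18a2, the vesicular monoamine transporter, at 1.02, 1.15 and 1.11 FPKM. Ret, the receptor of glial-derived neurotrophic factors, was at 0.712, 0.758 and 0.856 FPKM. Th, Ddc, Slc6a3 and Pitx3 were not analysed here.

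Cell cycle genes were expressed throughout, in cultures that had received no compound. All 30 mitosis genes on the list were in the table, and their levels ran from 6.95 FPKM for Ndc80, a kinetochore protein, to 51.3 FPKM for Cdk1, with a median of 20.9 FPKM. Cdk1 (ENSRNOG00000000632), the mitotic kinase, was at 55.3, 59.99 and 38.7 FPKM, and its cyclin Ccnb1 (ENSRNOG00000058539) at 42.3, 41.2 and 31.8 FPKM. Prc1, a spindle midzone protein, was at 49.7, 52.8 and 34.9 FPKM, Top2a, the topoisomerase of dividing cells, at 39.01, 40.8 and 26.5 FPKM, and Mki67, the antigen Ki-67, at 26.3, 28.6 and 22.8 FPKM. Replicate 3 was the lowest library in 30 of the 30 genes, against 40.2% of all genes with a mean count of at least 100.

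Genes of DNA replication had a median of 18.1 FPKM over 29 measured members. Rrm2 and Rrm1, the subunits of ribonucleotide reductase, were at 123, 125 and 89.1 and at 85.3, 92.9 and 71.3 FPKM. Mcm6, a subunit of the replicative helicase, was at 43.95, 49.5 and 34.4 FPKM, and Tk1, thymidine kinase, at 45.2, 49.7 and 33.2 FPKM. At the low end Gins2 and E2f8 were at 2.46, 2.59 and 2.08 and at 2.81, 3.27 and 2.34 FPKM. Replicate 3 was the lowest in 28 of the 29.

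Transcripts that promote and that restrain division were both present. Ccnd1, the cyclin of G1, was at 244, 279 and 166 FPKM, and Ccnd2 at 76.8, 77.5 and 83.3 FPKM. The inhibitor Cdkn1a (p21) was at 125, 125 and 127 FPKM with a CV of 0.836%, and the ubiquitin ligase Mdm2 at 44.7, 44.03 and 45.2 FPKM. The growth arrest gene Gas6, a ligand of TAM receptors, was at 154, 163 and 154 FPKM and Cdkn1b (p27) at 26.4, 24.2 and 27.9 FPKM. Myc was at 20.6, 20.2 and 20.2 FPKM and Mycn at 0.723, 0.640 and 0.623 FPKM. Of the cyclin D pair, Ccnd1 followed the mitosis genes and was lower in replicate 3, while Ccnd2 did not, so that the log2 ratio of Ccnd1 over Ccnd2 was 0.99 in replicate 3 and 1.67 and 1.85 in replicates 1 and 2.

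Promoters of the mitosis genes were searched for a pair of short elements of cell cycle genes. The shares describe lists chosen by function and do not bear on the level of replicate 3. The cell cycle homology region (CHR), spelled TTTGAA, is bound by MuvB complexes. The box named for its letters, CCAAT, is bound by the factor NF-Y. In the 250 bases before the start and on either strand, a CHR was in 11 of 25 promoters found for mitosis genes (44.0%), against 750 of 7422 (10.1%) for genes of the table. It was in 1 of 24 promoters of DNA replication genes. A CCAAT box was in 18 of 25 mitosis promoters (72.0%) and 15 of 24 DNA replication promoters (62.5%), against 34.7% for the table. Cdk1 is shown from chr20:19265043-19265292 on the plus strand (RefSeq, GRCr8), with a CHR starting 72 and 16 bases and a CCAAT box 210, 81 and 49 bases before the start. Ccnb1 is from chr2:33655226-33655475 on the minus strand, with CCAAT boxes at 82 and 50 bases and no CHR by this spelling in the window. No match overlaps another in either window. Capitals mark the matches on either strand.
Cdk1: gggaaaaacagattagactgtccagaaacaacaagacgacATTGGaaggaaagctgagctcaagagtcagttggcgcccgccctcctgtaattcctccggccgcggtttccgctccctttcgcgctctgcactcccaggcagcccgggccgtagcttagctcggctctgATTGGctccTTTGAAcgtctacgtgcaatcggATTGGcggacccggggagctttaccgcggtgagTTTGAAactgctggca
Ccnb1: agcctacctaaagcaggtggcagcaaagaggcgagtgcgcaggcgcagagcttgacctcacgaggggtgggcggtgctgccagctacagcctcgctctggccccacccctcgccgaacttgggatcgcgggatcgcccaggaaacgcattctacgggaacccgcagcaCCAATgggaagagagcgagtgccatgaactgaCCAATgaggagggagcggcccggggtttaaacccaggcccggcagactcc

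Microglial and macrophage genes reached levels near those of the astrocyte list. Of 30 genes 29 were in the table, 23 had a mean of at least 10 FPKM and 10 of at least 100, and the median was 72.8 FPKM at a median percentile of 93.5. Summed over the list, levels were 5269, 5216 and 6495 FPKM. Beside Lyz2, the high members were Gpnmb, a glycoprotein of phagocytes, at 885, 947 and 1262 FPKM, the lectin Lgals3 at 449, 450.0 and 469 FPKM and the protease Ctss at 257, 269 and 292 FPKM.

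Defining microglial genes gave a mixed picture. The signalling adaptors Fcer1g and Tyrobp were at 218, 206 and 253 and at 214, 206 and 242 FPKM, the complement genes C1qa, C1qb and C1qc at 158, 97.8 and 90.6 FPKM on average, Csf1r, the survival receptor, at 66.2, 66.8 and 85.3 FPKM, and Aif1 (Iba1) at 87.1, 71.6 and 91.5 FPKM. Spi1 (PU.1), the myeloid transcription factor, was at 54.9, 52.1 and 60.4 FPKM. Genes of resting microglia were far lower: Tmem119 was at 11.6, 13.5 and 16.1 FPKM, Cx3cr1 at 2.67, 3.39 and 4.48 FPKM and P2ry12 at 1.04, 0.571 and 0.542 FPKM. Cd74, a chaperone of antigen-presenting molecules, was at 0.658, 0.428 and 0.960 FPKM. The log2 ratio of C1qb over C1qc, which sit beside each other in mammalian genomes, was 0.05, 0.14 and 0.13.

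Oligodendrocyte lineage genes split by stage. Olig1, a transcription factor of the lineage, was at 158, 156 and 149 FPKM and Olig2 at 9.17, 9.96 and 9.09 FPKM, a mean ratio of 16.4-fold, and neither differed between libraries beyond counting error. Cnp, a myelin-associated enzyme also found outside this lineage, was at 63.1, 68.00 and 62.4 FPKM. Pdgfra, the receptor of progenitors, was at 7.12, 8.37 and 9.14 FPKM. Sox10, which defines the lineage, was at 1.60, 1.89 and 0.457 FPKM, Mbp, the myelin basic protein, at 6.79, 6.81 and 6.17 FPKM, Mag, a myelin glycoprotein, at 0.575, 0.576 and 0.160 FPKM, and Gpr17, a receptor of committed precursors, at 0.120, 0.163 and 0.0760 FPKM. The list had a median of 5.73 FPKM, and Zfp488 was at or near 0 with 0, 3 and 0 counts.

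Pericyte and smooth muscle genes had a median of 14.1 FPKM over 12 measured members, with contractile and receptor genes at both high and low levels. Tagln (transgelin) was at 707, 704 and 276 FPKM, Acta2, smooth muscle actin, at 100.1, 101 and 48.4 FPKM, Myl9 at 60.8, 59.4 and 30.3 FPKM and Cnn1, calponin, at 47.9, 53.2 and 20.8 FPKM. All 4 were lower in replicate 3 than in the other pair, with log2 ratios of replicate 3 over the mean of replicates 1 and 2 from -1.35 for Tagln to -0.99 for Myl9. Anpep, an aminopeptidase of pericytes, was at 23.2, 23.3 and 26.4 FPKM, Mcam, an adhesion protein, at 19.4, 20.5 and 16.3 FPKM and Notch3, a mural cell receptor, at 7.68, 9.47 and 11.4 FPKM. Pdgfrb, a pericyte receptor, was at 8.35, 9.59 and 9.57 FPKM, the contractile genes Lmod1 and Myh11, smooth muscle myosin, at 5.87, 6.36 and 2.80 and at 1.26, 1.39 and 1.02 FPKM, and Kcnj8, a pericyte potassium channel, at 0.241, 0.268 and 0.520 FPKM.

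Fibroblast and meningeal genes had a median of 9.06 FPKM over 20 measured members. Igfbp2 was at 319, 329 and 253 FPKM, and Mgp, matrix Gla protein, at 115, 87.4 and 229.9 FPKM. Collagens were moderate, with Col1a1 at 64.1, 83.6 and 60.3, Col3a1 at 57.1, 72.8 and 63.1 and Col5a2 at 66.7, 80.2 and 69.9 FPKM. Dcn, a proteoglycan that defines fibroblasts, was low at 0.322, 0.505 and 0.247 FPKM, and Lum at 2.79, 3.44 and 3.22 FPKM. The pair Col1a1 and Col1a2, chains of 1 collagen, kept a log2 ratio of 0.31, 0.36 and 0.29.

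Most endothelial and Schwann cell genes, and the few blood cell genes measured, were near the bottom of the table. Of 13 endothelial genes 8 had a mean under 1 FPKM, and the median was 0.587 FPKM. Pecam1 was at 0.608, 0.392 and 0.762 FPKM, Vwf at 0.0930, 0.117 and 0.175 FPKM and Robo4 had 0, 0 and 1 counts. The exceptions were Eng, a TGF-beta co-receptor that other cells use too, at 26.8, 27.6 and 33.8 FPKM and Esam at 16.9, 17.8 and 20.2 FPKM. Among 9 Schwann cell genes the median was 0.888 FPKM, with Pmp22 the high exception at 75.8, 75.9 and 74.8 FPKM and Foxd3 at 1, 3 and 0 counts. Of 14 red cell and lymphocyte genes 2 were in the table, Cd79b and Cd8a, at 0.594 and 0.497 FPKM on average. Of 16 ependymal and choroid plexus genes 2 were, Aqp1 and Clic6, at 4.67 and 0.587 FPKM.

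Glycolysis genes were abundant and very even. The 15 measured members had a median of 105 FPKM and a median CV of 3.65%, against 8.53% for all genes with a mean count of at least 100. Pkm, pyruvate kinase, was at 1124, 1144 and 1146 FPKM, Aldoa at 693, 705 and 725 FPKM, Pgk1 at 386, 394 and 358 FPKM and Tpi1 at 348, 366 and 342 FPKM. Hk1 was at 105, 107 and 103 FPKM and the inducible Hk2 at 10.9, 10.3 and 10.2 FPKM. The lactate transporter Slc16a1 was at 123, 121 and 171 FPKM and departed from the list in being higher in replicate 3, while Slc16a3 was at 8.84, 9.18 and 9.16 FPKM.

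Cholesterol and lipoprotein genes had a median of 45.2 FPKM over 18 members. Beside Apoe, Hmgcs1, Cyp51 and Lpl, lipoprotein lipase, were at 158, 151 and 174, at 123, 134 and 144 and at 76.05, 75.6 and 74.1 FPKM. Abca1, the cholesterol exporter, was at 17.9, 19.3 and 23.6 FPKM, and Apod, a lipocalin, at 3.04, 3.93 and 2.48 FPKM.

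Stress and protein folding genes had the highest list median outside the mitochondrial genome and the qPCR reference genes, 153 FPKM over 23 members. Sqstm1, an autophagy receptor, was at 499, 453 and 548 FPKM, Hmox1, heme oxygenase, at 379, 321 and 481 FPKM, and Calr, a chaperone of the endoplasmic reticulum, at 459, 473 and 472 FPKM. Inducible members of the list differed in level. Mt2A averaged 1443 FPKM and Hspb1 255 FPKM, whereas Hspa1a, Ddit3 and Trib3 were low beside these. Hspa1a, the inducible Hsp70, was at 6.79, 7.41 and 7.90 FPKM, Ddit3 (CHOP) at 9.18, 6.61 and 4.85 FPKM and Trib3 at 1.81, 1.63 and 1.07 FPKM.

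Immediate early genes, which answer stimuli within minutes, had a median of 6.35 FPKM over 24 members. Ier3 was at 216, 199.6 and 212 FPKM, Jund at 48.5, 52.6 and 40.1 FPKM and Klf6 at 38.03, 34.2 and 35.5 FPKM. Fos was at 6.21, 5.70 and 6.84 FPKM, Egr1 at 6.42, 7.21 and 10.8 FPKM, Nr4a1 at 1.43, 1.17 and 2.01 FPKM, Arc at 0.467, 0.628 and 0.394 FPKM and Fosb at 0.237, 0.0890 and 0.272 FPKM. These give the starting levels at 0 h.

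Matrix and adhesion genes were high, with a median of 34.4 FPKM over 27 members. Ncan, the brain proteoglycan neurocan, was at 683, 828 and 809 FPKM, P4hb, a disulphide isomerase and collagen hydroxylase subunit, at 454, 503 and 507 FPKM, and Fn1, fibronectin, at 314, 414 and 299 FPKM. Lamb1 was at 6.44, 8.53 and 7.75 FPKM and Col6a3 at 0.451, 0.577 and 0.774 FPKM. Some chains of the same assembly differed in level: Lamc1 was at 71.1, 86.9 and 80.7 FPKM, with a log2 ratio of Lamb1 over Lamc1 of -3.46, -3.35 and -3.38, and Col6a1 and Col6a2 were at 44.2 and 60.9 FPKM on average with Col6a3 under 1 FPKM.

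Growth factors lay near the median gene as a list, and growth factor and differentiation receptors lay above it. The 22 measured growth and neurotrophic factors had a median of 7.37 FPKM. Ptn, pleiotrophin, stood out at 329.9, 312 and 431 FPKM, followed by Tgfb1 at 43.7, 43.8 and 46.9 FPKM, Gdf15 at 49.8, 42.96 and 38.1 FPKM and Hbegf, an EGF receptor ligand, at 36.1, 39.5 and 30.4 FPKM. Cntf was at 39.4, 34.2 and 28.8 FPKM, Bdnf at 0.596, 0.472 and 1.05 FPKM and Gdnf, which supports dopaminergic neurons, at 0.786, 0.219 and 0.982 FPKM from 9, 3 and 11 counts. Of the 22 receptors the median was 13.5 FPKM. Ntrk2, the Bdnf receptor, was at 117, 115 and 169 FPKM, Fgfr1 and Bmpr1a at 90.7, 96.3 and 116 and at 90.9, 80.3 and 100.2 FPKM, and Il6st (gp130) at 56.1, 58.7 and 63.00 FPKM. Ngfr, a neurotrophin receptor, was at 0.561, 0.506 and 0.510 FPKM.

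The spread among the 3 libraries exceeded counting error in many genes. A chi-square test of the counts against shares proportional to TMM-scaled library sizes called 4502 of 9317 genes with a mean count of at least 10 (48.3%, Benjamini-Hochberg adjusted p below 0.05). Among the lists it called 30 of 30 mitosis genes, 27 of 29 DNA replication genes, 27 of 28 astrocyte genes, 26 of 29 microglial genes, 19 of 23 interferon response genes and 10 of 15 glycolysis genes. Abundant genes are called more readily by this test, because their counting error is smaller. The median CV of FPKM was 8.53% over the 7589 genes with a mean count of at least 100, where counting error alone would give 4.05%. The 10th and 90th percentiles were 3.01% and 19.7%. The biological coefficient of variation, edgeR's estimate of spread apart from counting, was 11.8%. Without replicate 3 the test called 1641 genes and the biological coefficient of variation was 6.55%.

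**Figure D4:**
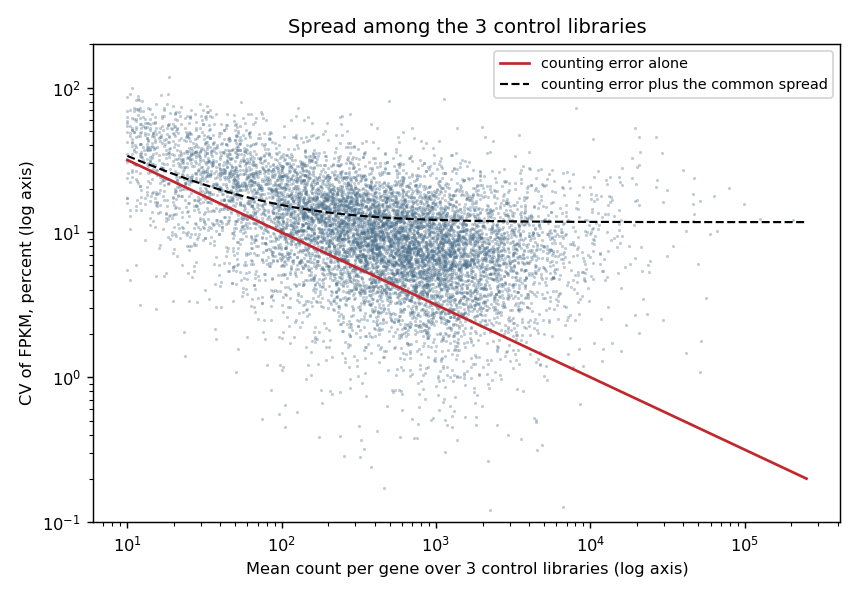
CV of FPKM over the 3 control libraries (percent, log axis) against mean count (log axis) for genes with a mean count of at least 10, 1 point per gene. The red line gives counting error alone and the dashed line adds the common spread of 11.8%. Points above the red line at high counts show spread beyond counting error.

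A ratio of at least 1.5 between the highest and the lowest library was found in 630 of 7589 genes (8.3%). Replicate 3 was the highest library in 274 of these and the lowest in 310, and replicates 1 and 2 were within 1.5-fold of each other in 7524 of the 7589. Without replicate 3 there were 65 such genes. Over all 7589 genes replicate 3 was the highest in 37.3% and the lowest in 40.2%, replicate 1 in 29.9% and 29.7%, and replicate 2 in 32.8% and 30.1%. The median log2 ratio of replicate 3 to the mean of replicates 1 and 2 was -0.01. These shares are the background for the lists that follow.

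Interferon response genes were more often higher in replicate 3 than genes at large. Replicate 3 was highest in 20 of 21 members with a mean count of at least 100 and lowest in 1, the median log2 ratio was 0.61, and 12 of 21 reached a ratio of 1.5. Oas1a (ENSRNOG00000001369), an enzyme that senses viral RNA, was at 3.23, 3.13 and 10.01 FPKM. Isg15, a ubiquitin-like modifier, was at 7.84, 6.48 and 18.3 FPKM, Mx1 and Mx2, antiviral GTPases, at 3.44, 2.63 and 8.23 and at 14.2, 12.5 and 30.8 FPKM, Rsad2 (ENSRNOG00000007539), viperin, at 2.82, 1.84 and 5.82 FPKM, and Irf7 (ENSRNOG00000017414), a transcription factor of the response, at 9.98, 8.16 and 20.8 FPKM. For each of these replicate 3 stood above both other replicates, which differed by more than 1.5-fold from each other in Rsad2 alone of these 6. Of the 3 most abundant members, B2m, a chain of MHC class I molecules, was at 249, 231 and 286 FPKM and within 1.5-fold, while Ifi27 was at 53.6, 57.5 and 102 FPKM and the chemokine Cxcl10 at 45.1, 37.3 and 63.1 FPKM, both past 1.5-fold with replicate 3 the highest. Psmb8, an immunoproteasome subunit, at 27.3, 26.5 and 27.96 FPKM, and Irf1, at 18.6, 18.8 and 17.7 FPKM, were within 1.5-fold. Counts of Isg15, Oas1a, Mx1 and Mx2 were not all whole numbers, so reads shared with gene copies may enter their levels.

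Promoters of the interferon response genes were searched for an element of this response. A high share can follow from how the list was made, and it does not bear on the level of replicate 3. The element bound by interferon regulatory factors, here a GAAA separated by any 2 bases from a further GAAA, was on either strand in the 250 bases before the start of 10 of 17 promoters found for the list (58.8%), against 202 of 7422 (2.72%) for genes of the table and 902 of 27455 (3.29%) for all promoters of the RefSeq table. The 10 were those of Irf7, Ifit3, Oas1a, Ifi27, Bst2, Rsad2, Tap1, B2m, Ifih1 and Cxcl10, and the window of Mx1 held none by this spelling. Median GC content was 52.0% for the list's promoters and 60.8% for those of the table. Among the 100 genes with the largest CV the element was in 10 of 71 promoters (14.1%). Rsad2 is shown from chr6:48788121-48788370 on the minus strand (RefSeq, GRCr8), with the element starting 147 bases before the start. Oas1a is from chr12:41330216-41330465 on the plus strand, with overlapping elements at 41 and 35 bases, and Irf7 from chr1:205800024-205800273 on the minus strand, with the element at 69 bases. Capitals mark the element or its reverse complement.
Rsad2: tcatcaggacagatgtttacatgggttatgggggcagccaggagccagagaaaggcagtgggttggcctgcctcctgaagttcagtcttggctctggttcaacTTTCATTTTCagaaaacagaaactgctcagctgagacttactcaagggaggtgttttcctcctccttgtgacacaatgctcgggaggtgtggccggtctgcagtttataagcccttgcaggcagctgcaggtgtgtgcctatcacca
Oas1a: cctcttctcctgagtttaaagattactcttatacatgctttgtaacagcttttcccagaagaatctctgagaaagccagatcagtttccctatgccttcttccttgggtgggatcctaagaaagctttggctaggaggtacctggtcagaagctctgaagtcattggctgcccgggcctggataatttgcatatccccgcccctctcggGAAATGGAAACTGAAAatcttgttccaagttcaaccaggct
Irf7: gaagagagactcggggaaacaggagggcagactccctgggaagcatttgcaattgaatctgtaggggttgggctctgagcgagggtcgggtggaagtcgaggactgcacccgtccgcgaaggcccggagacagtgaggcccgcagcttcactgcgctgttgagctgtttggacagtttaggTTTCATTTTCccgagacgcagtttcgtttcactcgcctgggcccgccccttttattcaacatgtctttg

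Astrocyte genes were also more often higher in replicate 3. It was the highest library in 22 of 28 members with a mean count of at least 100 and the lowest in 5, with a median log2 ratio of 0.37, and 9 of 28 reached a ratio of 1.5. The list summed to 6928, 6432 and 8921 FPKM. Aqp4 had a log2 ratio of 0.76, Sparcl1 of 0.83, Gpr37l1, a receptor of mature astrocytes, of 0.79 and Slc1a2 of 0.68, against 0.49 for Gfap and 0.22 for Sox9. In the list of glutamate, potassium, water and gap junction handling, which shares members with it, replicate 3 was highest in 11 of 15 and the median was 0.40. Microglial genes were highest in replicate 3 in 23 of 26 and lowest there in 0 of 26, with a median of 0.23, yet 2 of 26 reached 1.5-fold. The pair was Ptprc, the leukocyte phosphatase CD45 (14.3, 15.05 and 22.2 FPKM), and Cx3cr1, the fractalkine receptor (2.67, 3.39 and 4.48 FPKM).

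Proliferation genes, contractile genes and neuronal genes were lower in replicate 3. Mitosis genes had a median log2 ratio of -0.46, and 8 of 30 reached a ratio of 1.5, among them Ect2, needed for cytokinesis, at 16.05, 14.6 and 8.99 FPKM, and Anln, anillin, at 35.2, 39.7 and 23.3 FPKM. DNA replication genes had a median of -0.42, and 5 of 29 reached 1.5, with Uhrf1, a maintenance methylation factor, at 20.3, 22.3 and 13.2 FPKM. Summed levels were 771, 815 and 575 FPKM for mitosis and 720.2, 764 and 554 FPKM for DNA replication. Replicate 3 was the lowest library in 7 of 11 mural genes, and 6 of 11 reached 1.5, 5 of them with replicate 3 the lowest. The mural list summed to 984, 990.5 and 446 FPKM, of which Tagln alone held 707, 704 and 276 FPKM. Replicate 3 was the highest in 2 of the 11, the pericyte gene Anpep and the mural receptor Notch3. Among 15 neuronal genes with a mean count of at least 100 it was the lowest in 12, with a median of -0.42, and 6 reached 1.5. Gap43, a growth cone protein, was at 6.79, 9.54 and 3.60 FPKM, and Mapt, the microtubule protein tau, at 6.07, 7.02 and 3.12 FPKM.

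**Figure D5:**
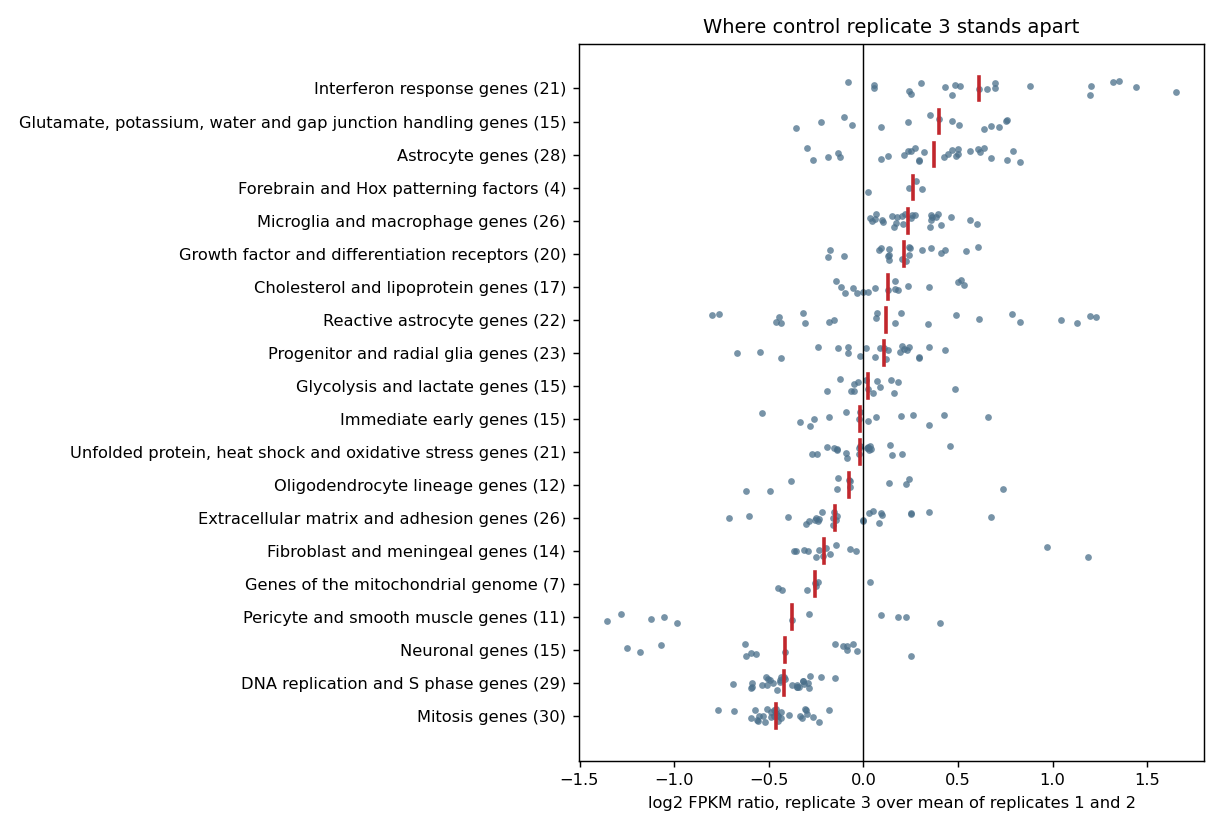
Log2 ratio of FPKM in replicate 3 over the mean of replicates 1 and 2 for list members with a mean count of at least 100 (number in brackets), with a red bar at each list's median and a line at 0. Medians run from 0.61 for interferon response genes to -0.46 for mitosis genes, with all 30 mitosis points left of 0.

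The 12 genes with the largest CV among those with a mean count of at least 100 were all highest in replicate 3. At the same fold, CV scores 1 high library above 1 low library, so this ranking favours genes high in a single library. Ano5, at 4.97, 4.62 and 1.29 FPKM with a highest over lowest ratio of 3.84, fell outside the 12. Among genes with a ratio of at least 1.5, replicate 3 was highest in 274 and lowest in 310. Chi3l1 (ENSRNOG00000053272), a chitinase-like protein secreted by reactive astrocytes, came first at 23.4, 20.5 and 83.5 FPKM, a CV of 83.7%. RGD1565462, on a pair of table rows, was at 8.17, 7.84 and 29.0 FPKM in 1 row and at 115, 109.9 and 354 FPKM in the other. Oas1a, Mx1, Isg15 and Rsad2, given above, were among the 12, as was Oas1k (4.35, 3.75 and 10.8 FPKM). Ccl12, a chemokine, was at 24.2, 16.3 and 56.1 FPKM, Cbs, cystathionine beta-synthase, at 1.99, 1.90 and 5.34 FPKM, Bmper, a BMP-binding protein, at 1.82, 1.37 and 4.25 FPKM, and Kcnn2, a calcium-activated potassium channel, at 1.83, 2.35 and 5.15 FPKM. Counts behind the low members were few, with 107, 96 and 244 for Bmper and 78, 89 and 204 for Cbs.

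Several of these lists moved together with replicate 3, and their part in each other's levels was not tested. That library had less of the mitosis transcripts, of the contractile transcripts of the mural list and of most neuronal transcripts. Most astrocyte, microglial and interferon transcripts were higher there, with a summed level of 8921 FPKM for astrocyte genes against 6928 and 6432 FPKM. The number of genes with at least 1 FPKM in replicate 3, 8402, was close to the 8433 and 8445 of replicates 1 and 2. Its total count was 10364591, near the 10432924 of replicate 1. Genes often used to scale qPCR differed as well, with Actb lower in replicate 3 and Tfrc, the transferrin receptor, at 100.1, 95.6 and 124 FPKM, whereas Hprt1 was at 67.4, 67.1 and 72.2 FPKM and did not differ beyond counting error.

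Ratios of partner genes were steady across libraries in some pairs and not in others. Of 42 pairs, 33 had both genes in the table. Mcm3 and Mcm7, partners in 1 helicase, had log2 ratios of 0.03, -0.02 and 0.02, although both were lower in replicate 3. Col6a1 over Col6a2 was -0.46, -0.46 and -0.46. Id1 over Id3, inhibitors of bHLH factors, was -1.61, -1.54 and -1.47. Other pairs were less even. Gfap over Vim was -0.92 in replicate 3 and -1.82 and -1.87 in replicates 1 and 2. Sox9 over Sox10, an astrocyte and an oligodendrocyte factor, was 5.75 in replicate 3 and 3.76 and 3.46 in replicates 1 and 2, with Sox10 at 21 counts in replicate 3.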

How the data were processed

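RNA-seq values of 3 control libraries were used, of 12 in the series. Per the labels' protocols, RNA came from a TRIzol extraction and the library kit was NEBNext Ultra RNA. The authors deposited an estimated count for each gene and library, per the file headers, in 1 table. FPKM values stand beside them in the deposited table, scaled by the authors to gene length and depth. The submitters' processing notes name StringTie 2.2.1. Which aligner, build and annotation were used is not given in the sources used here. Among deposited control counts 9.80% were not whole numbers, in 1126 genes, so counts were rounded for the tests. Near-identical or overlapping genes may share reads.

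Levels are the deposited FPKM, without pseudocount, as mean ± SD over 3 libraries. Where a symbol was on more than 1 row (58 symbols), the row with the highest mean count was used, and 60 rows had no symbol. Counts were compared among the libraries with a chi-square test on TMM-scaled library sizes, Benjamini-Hochberg adjusted over genes with a mean count of at least 10, and the common spread was estimated with edgeR 4.0.16 in R 4.3.3. The test was checked on simulated counts. It measures differences between these libraries, not between conditions. Promoters were matched by symbol for 7422 genes in a RefSeq table (GRCr8), as the 250 bases before the annotated start, and motif letters were searched on both strands.

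The 30 gene lists (728 members, 687 distinct genes) and the rules below were chosen with earlier results of these data known. Named genes are the 3 markers, the 25 most abundant genes (mean count of at least 10), up to 4 members with the highest and 2 with the lowest level of each list, members needed to show a level near 0, the 12 genes with the largest CV (mean count of at least 100), and gene pairs. Some members of the lists count in list totals and are not reported here by name. Other members are named as further examples of a list or a role and were chosen after their values were seen, as were the motifs. Alternatives were RLE and library size scaling, other count filters, DESeq2 1.42.0 dispersions, other level limits and leaving out each replicate. Scaled ratios for replicate 3 and other limits for the patterning factors were added after seeing the data. Total counts were 10364591 to 12498047 per library, so that a gene with 100 counts has a counting error of about a 10th of its value. A count of 0 allows up to 3 counts.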

Additional observations from a re-analysis of the deposited data

How the results depend on the processing

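The table holds part of the genes, and the rule of their choice is not known, so shares and percentiles are not transcriptome-wide. With 3 libraries of 1 group, the spread cannot be divided into culture and technical parts. The number of genes at 1 FPKM or more was within 1.5 times of 8450 under all 6 alternatives run. The 25 most abundant genes held 13.3% of counts when ranked by counts and not by FPKM (20.3%), since counts favour long genes. Replicate 3 decided the measures of spread. Leaving out each replicate in turn, the counting test called 1641 to 3644 genes (4502 with all 3), the biological coefficient of variation was 6.55% to 14.2% (11.8%; DESeq2 12.7%), and 65 to 466 genes reached a ratio of 1.5 (630), in each case lowest without replicate 3. With a mean count of at least 10 in place of 100, 1562 genes reached that ratio. Each list under each alternative setting was counted as 1 case. The median log2 ratio of replicate 3 kept its sign in 55 cases of TMM or library size scaling. Glycolysis reversed from 0.02 to -0.0094 under library size scaling, where the median of all genes was -0.03. The median percentile of a list moved by less than the spread between replicates in 132 cases and by more in 48. With limits of 2 and 10 FPKM, 5 and 1 midbrain and hindbrain factors passed, and 4 and 3 forebrain factors. No paired analysis was possible because a single group was analysed and no groups were compared.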

Other observations

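Transcription factors were ranked by mean FPKM with the family column of the deposited table, a ranking chosen after the values were seen. Hmga1, a chromatin-bending protein of proliferating cells, led at 414 ± 80.6 FPKM (SD, n = 3). Inhibitors of differentiation were high, with Id3 at 372 ± 25.7, Id1 at 128 ± 2.86 and Id2 at 79.3 ± 7.46 FPKM. Cebpd, a factor of inflammatory responses, was at 152 ± 10.3 FPKM, Epas1 (HIF-2 alpha), of the hypoxia response, at 148 ± 13.3 FPKM, and Nfe2l2, which drives antioxidant genes, at 126 ± 3.15 FPKM. Sox2 was the 22nd of this ranking, beside Spi1, the myeloid factor, as the 23rd at 55.8 ± 4.25 FPKM.

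Some abundant secreted products fall outside the lists. Penk, the precursor of enkephalin peptides, was at 669.5, 620.3 and 1016 FPKM, Tf, the iron carrier transferrin, at 510.2, 507 and 1051 FPKM, Spp1, osteopontin, at 719, 647 and 1075 FPKM, and Ccl7 and Cxcl1, chemokines, at 785, 749 and 823 and at 704, 648 and 486 FPKM. Penk, Tf and Spp1 were higher in replicate 3 and Cxcl1 was lower there. Ednrb, an endothelin receptor of astrocytes, was at 78.2, 78.6 and 167 FPKM.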
